A study of Mus musculus with 38 samples.

Results

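Surfactant is the mixture of phospholipid and protein that lowers surface tension in the alveoli of the lung. It is made by type 2 alveolar cells, which assemble it in storage organelles called lamellar bodies, secrete it and take part of it up again. Its proteins are the collectins SP-A and SP-D, which bind microbes, and the small hydrophobic proteins SP-B and SP-C, which act on the lipid film. The genes described here were 10 genes of this system, listed by name: Sftpa1 and Sftpd (SP-A and SP-D), Sftpb and Sftpc (SP-B and SP-C), Abca3 (the lipid transporter of the lamellar body membrane), Lamp3 (a membrane glycoprotein of lamellar bodies), Napsa (an aspartic protease that processes the SP-B and SP-C precursors), Lpcat1 (an acyltransferase that remodels phosphatidylcholine), Slc34a2 (a sodium-phosphate cotransporter) and Nkx2-1 (a homeodomain transcription factor needed for lung epithelium). They were 10 of the 20018 genes with a named probe on the array, and were read by 12 of its 55681 gene probes.

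Lung and forestomach came from male Muta™Mouse of about 10 weeks, a transgenic strain whose cells all carry a lacZ reporter, so that D0 shared this transgene with the exposed groups. Dibenz(a,h)anthracene (DBahA), a polycyclic aromatic hydrocarbon, was dissolved in olive oil and given by daily gavage over 28 days. D1 received 6.25, D2 12.5 and D3 25 mg per kg of body weight a day, D0 received the oil alone, and tissue was collected 72 h later from 5, 5, 4 and 5 mice (lung) and 5, 5, 4 and 4 mice (forestomach). Each of the 38 arrays compared the RNA of 1 tissue sample, taken from random sections of the organ and labelled with Cy5, with a universal mouse reference RNA pooled from cell lines and labelled with Cy3. The value given below, unless stated otherwise, is the log2 ratio of Cy5 over Cy3, and a probe was called where limma gave a Benjamini-Hochberg adjusted p of at most 0.05 over all probes and a fold change of at least 1.5, which is 0.58 on the log2 scale.

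Lung arrays all lay in 1 row of their slides and forestomach arrays in the other, so tissue and slide row cannot be told apart, and the dose groups followed the slide columns except for D0 mouse 1. The share of probes that Cy5 read well above background was between 30.0% and 63.7% on an array, and no spot was saturated. Of 6 squamous epithelium markers, 5 were called higher in D0 forestomach than in D0 lung, but so were 6 of 9 glandular stomach markers. All 12 member probes were well above background on 19 of 19 lung arrays. In forestomach, 2 arrays carry the label of D3 mouse 18 and were averaged as 1 mouse. The second lay in the slide and column where the lung array was that of mouse 20, and the labels do not settle whether both arrays are of 1 animal, so n at D3 is uncertain. In RNA of whole tissue, fewer cells of a type and less RNA per cell cannot be told apart.

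The first comparison asked how far the 10 genes were restricted to lung in animals given oil alone. All 10 were called higher in D0 lung than in D0 forestomach, where 8.62% of all probes were called higher in lung, and for each gene the 5 lung values lay above the 5 forestomach values. These genes were listed as lung genes, so the count is a check of the tissue labels. Sftpc read 6.99, 6.69, 7.21, 7.40 and 7.09 in the lungs of D0 mice 1 to 5, and 0.03, 0.71, 0.65, 0.04 and 0.14 in their forestomachs. The ratio was 6.76 higher in lung on the log2 scale (SE 0.35, limma, adjusted p = 5.96e-17). On the same scale Sftpd differed by 6.51, Sftpb by 6.16 and Sftpa1 by 6.13. Among the genes of processing, lipid and ion transport, Napsa differed by 5.38, Slc34a2 by 4.36, Lamp3 by 3.95, Abca3 by 2.85 and Lpcat1 by 2.76, and Nkx2-1 differed by 4.11. The largest adjusted p among the 10 was 2.06e-12, for Sftpd. These differences give no order of the genes, since most were taken against forestomach spots at or near background.

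The forestomach signal behind these differences was of several kinds. Abca3 and Lamp3 were well above background on 19 of 19 forestomach arrays. Sftpd was well above background on 12 of 19, Lpcat1 and Sftpc on 4, Napsa on 3, Sftpb and Slc34a2 on 1, and Sftpa1 and Nkx2-1 on none. Where no D0 forestomach array read a gene well above background, only a bound on the fold can be given, taken in the Cy5 channel against, on each array, the higher of the lowest signal that counted as above background and the signal of the probe itself, which for Napsa was the probe itself. On this scale D0 lung was at least 1228-fold higher for Sftpa1, at least 1270-fold for Sftpb, at least 39.9-fold for Napsa, at least 22.9-fold for Slc34a2 and at least 18.2-fold for Nkx2-1. Abca3, measured in both tissues, was 7.33-fold higher in lung in the Cy5 channel and Lamp3 13.8-fold. These folds compare Cy5 with Cy5 across arrays after loess and Aquantile scaling. The dyes were not swapped, so a dye effect that changes with signal level would remain in them.

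For the surfactant proteins the log2 ratio was smaller than the difference in Cy5, since the reference channel was not equal on the arrays of the 2 tissues. The Cy3 signal came from the same reference RNA on every array. Over all probes its median signal was 1.04-fold higher on lung than on forestomach arrays, and only 0.0862% of probes differed by 4-fold or more in that direction. For the Sftpc probe the scanned Cy3 signal ranged from 5129 to 34790 (median 8705) on lung arrays and from 29.0 to 60.5 (median 46.0) on forestomach arrays, a ratio of medians of 189. The same ratio was 54.7 for Sftpa1, 53.3 and 20.7 for the 2 probes of Sftpb, and 26.6 and 8.28 for the 2 probes of Sftpd. These 6 probes were all those of the 4 surfactant proteins. It was 2.41 for Slc34a2, 2.34 for Nkx2-1, 2.03 for Lpcat1, 1.26 for Napsa, 1.08 for Abca3 and 0.998 for Lamp3. Among the 191 probes whose median Cy5 signal was at least 16 times higher on lung arrays, 39 (20.4%) had such a 4-fold higher Cy3 signal. The cause was not tested. The log2 ratio of the 4 surfactant proteins therefore understates their difference in Cy5 between the tissues.

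**Figure D1:**
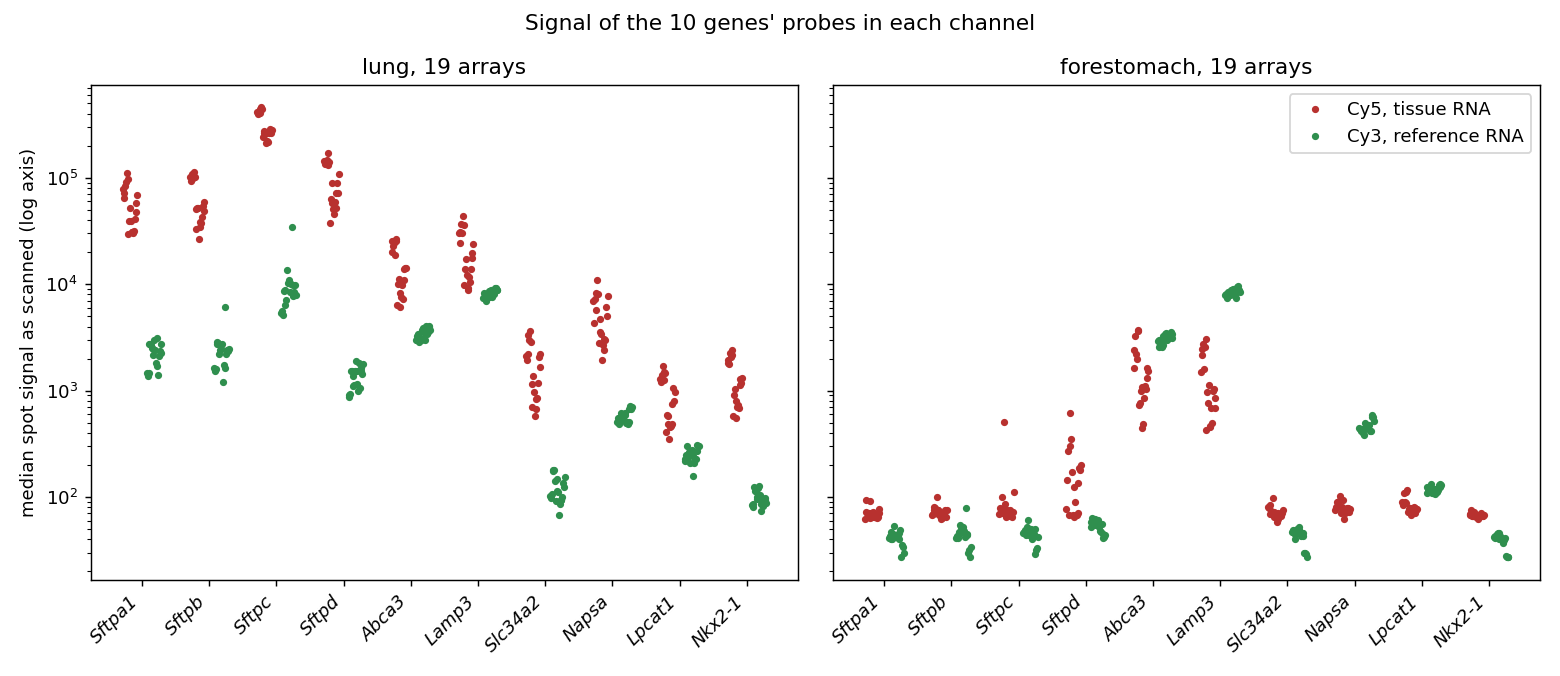
Median spot signal as scanned, on a log axis, of the 10 genes' probes in Cy5 (tissue RNA, red) and Cy3 (reference RNA, green) on the 19 lung arrays (left) and 19 forestomach arrays (right), with 1 point per array. Cy3 of Sftpa1, Sftpb, Sftpc and Sftpd runs from 868 to 34790 on lung arrays and from 27 to 79 on forestomach arrays, whereas the median Cy3 of Abca3 and Lamp3 differs by less than 1.1-fold between the panels.

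NKX2-1 is known to bind promoters of surfactant protein genes, and promoter sequence was therefore set beside the levels. The RefSeq promoter table (build GRCm38.p6) held 7 of the 10 genes. The promoters of Sftpa1 and Sftpb, bright in lung and not above background in D0 forestomach, are shown, each as the 150 bases before the transcription start, read 5′ to 3′ on the strand of the gene. Capitals mark matches, on either strand, to GCNCTNNAG, a form of the NKX2-1 site, and to TGTTTNC, a forkhead site such as FOXA factors bind.
Sftpa1, chr14:41131638-41131787, plus strand: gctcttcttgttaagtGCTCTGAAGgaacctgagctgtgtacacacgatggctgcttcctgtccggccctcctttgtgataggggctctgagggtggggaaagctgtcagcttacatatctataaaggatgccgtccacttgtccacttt
Sftpb, chr6:72304460-72304609, plus strand: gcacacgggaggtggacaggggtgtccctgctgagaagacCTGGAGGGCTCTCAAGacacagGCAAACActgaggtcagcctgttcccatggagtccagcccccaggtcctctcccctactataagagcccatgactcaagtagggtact

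In Sftpb, 2 matches to GCNCTNNAG overlapped, from 110 to 102 bases before the start on the opposite strand and from 103 to 95 bases on the same strand, and a forkhead match followed at 88 to 82 bases. Sftpa1 held 1 match to GCNCTNNAG, 134 to 126 bases before the start, and a TATAAA box at 30 to 25 bases. Of the 7 windows of 250 bases before the start, 3 held GCNCTNNAG (Sftpa1, Sftpb and Nkx2-1 itself), against 14.2% of all 32851 promoter windows. TGTTTNC was in 2 windows (Sftpb and Lamp3), against 17.8% of all. CTCAAG was in 2 (13.3% of all) and TATAAA in 1 (12.4%). The shorter forms CNCTNNAG and CTNNAG were in 5 and 6 windows, and CAAG in 5, but these letters occurred in 43.5%, 73.1% and 86.6% of all promoters. Slc34a2 and Nkx2-1 were also not above background in D0 forestomach. Of these, the window of Slc34a2 held no match to any of the sequences counted here. A match is a description of the letters and not evidence of binding.

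The main comparison asked whether DBahA altered expression of the 10 genes in lung. None was called at D1, D2 or D3, where limma called 0.140%, 0.264% and 0.639% of all probes. At D3, 9 of the 10 log2 fold changes were below 0, with a median of -0.10 against -0.00055 over all probes, and they ran from -0.24 (Abca3) to 0.22 (Napsa). Their adjusted p ran from 0.403 to 0.994. The D1 median was -0.05 (range -0.14 for Lamp3 to 0.20 for Napsa, lowest adjusted p = 0.878). The D2 median was also -0.05 (range -0.44 for Sftpc to 0.10 for Napsa, lowest adjusted p = 0.733). The 3 contrasts share the D0 arrays. Without adjustment, no member had a p under 0.05 at the lower 2 doses and 1 had at the highest, against 3636, 4487 and 6271 of all 55681 probes. At D3 the share of members was thus no higher than that of all probes. The direction at D3 depended on the scaling, since with arrays centred on their median in place of loess all 10 members were above 0 (median 0.39), again with none called. In Cy5 alone, scaled to the 75th percentile of the array and with slide as a block, 5 were below and 5 above.

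**Figure D2:**
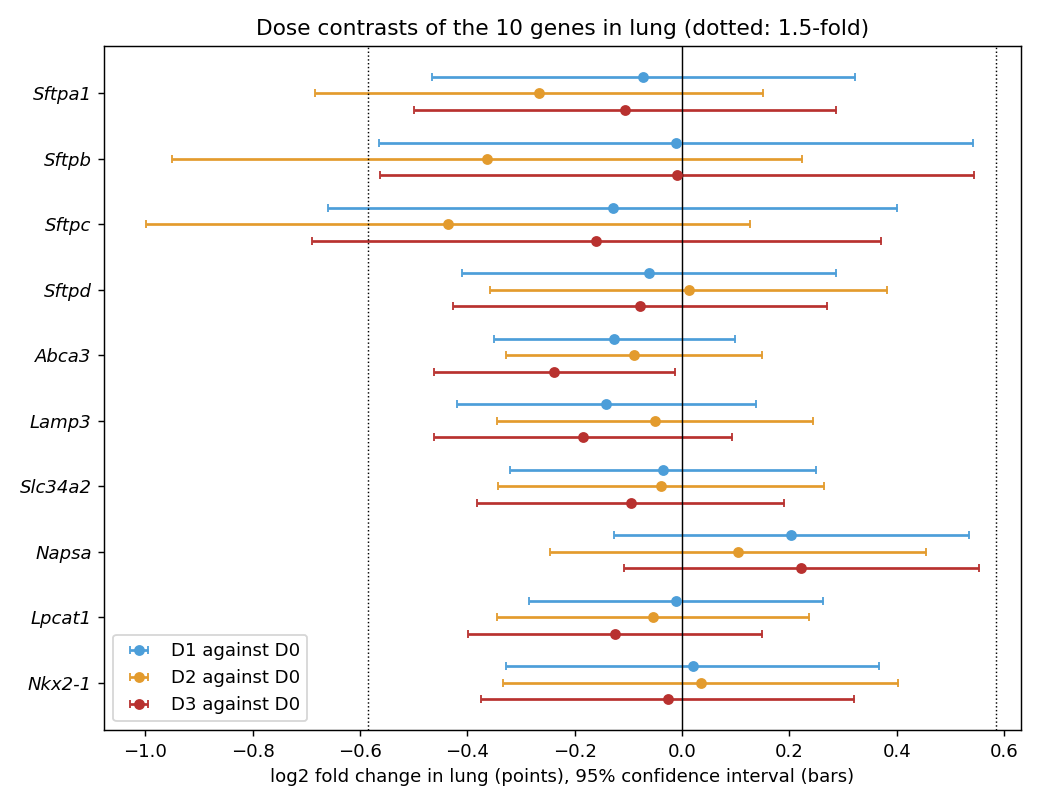
Log2 fold change of each of the 10 genes in lung at D1, D2 and D3 against D0 (points) with its 95% confidence interval (bars), and dotted lines at a fold change of 1.5. No interval excludes 0 except that of Abca3 at D3, and at D3 only the interval of Sftpc crosses a dotted line.

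The intervals show what size of change the loess ratios could still hold. At D1 the 95% confidence interval lay inside a 1.5-fold change in either direction for 9 of 10 genes, at D2 for 7 and at D3 for 9. The exceptions were Sftpc at all 3 doses, whose interval at D3 ran from -0.69 to 0.37, and Sftpa1 and Sftpb at D2. The widest was that of Sftpc at D2, from -1.0 to 0.13. These intervals bound the ratio and not the tissue RNA itself. For the surfactant proteins the Cy3 signal was not the same on the arrays of the 2 tissues. Whether it also moved with the tissue signal among the lung arrays was not tested, so their intervals may not bound a change in Cy5.

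Abca3, which loads lipid into lamellar bodies, was the member with the smallest p. It read 3.48, 3.47, 3.29, 3.19 and 3.41 in D0 mice 1 to 5, 3.54, 3.1, 3.30, 3.03 and 3.24 in D1 mice 6 to 10, 3.34, 3.25, 3.36 and 3.16 in D2 mice 11, 12, 13 and 15, and 3.37, 3.30, 2.83, 2.93 and 3.22 in D3 mice 16 to 20. The D3 values of mice 18 and 19 lay under all other lung values, and the other 3 lay inside the D0 range, so the groups overlapped. The log2 fold change at D3 was -0.24 (limma, SE 0.11, unadjusted p = 0.0390, adjusted p = 0.403). It was below 0 on each of the 4 slides that held both groups, from -0.46 to -0.17, and -0.27 with slide as a block (adjusted p = 0.108). Abca3 was not alone in this, since Sftpb, Sftpc, Sftpd and Lpcat1 were also below 0 on each of the 4 slides, with none called under the block. Without mouse 18 it was -0.16.

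Napsa, the protease, was the member that lay highest. It read 4.12, 3.63, 4.12, 3.68 and 3.54 at D0 and 4.04, 3.82, 3.87, 4.03 and 4.45 at D3, so that only mouse 20 lay above the D0 values. Its log2 fold change at D3 was 0.22 (SE 0.16, adjusted p = 0.666), with 4 of 5 mice above the D0 mean, and it was 0.20 at D1 with 5 of 5 mice above it. On single slides the D3 difference ran from -0.25 to 0.62.

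Among the surfactant proteins, Sftpa1 averaged 6.12 ± 0.27 (mean ± SD, n = 5) at D0 and 6.01 ± 0.33 (n = 5) at D3. Sftpd averaged 7.47 ± 0.16 at D0 and 7.39 ± 0.25 at D3. Its second probe lay above its D0 mean at D3 (log2 fold change 0.16, adjusted p = 0.839), so the 2 probes of Sftpd differed in sign and neither was called. Sftpb averaged 6.22 ± 0.29 at D0 and 6.21 ± 0.34 at D3 on its brighter probe, and 3.50 ± 0.07 and 3.39 ± 0.19 on its other. With slide as a block the D3 difference moved from -0.01 to -0.16 for Sftpb (adjusted p = 0.794), from -0.08 to -0.18 for Sftpd (adjusted p = 0.479) and from -0.16 to -0.22 for Sftpc (adjusted p = 0.709). For none of the 4 did the D3 and D0 values separate.

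The remaining members were as close. Lamp3 averaged 2.73 ± 0.20 at D0 and 2.54 ± 0.23 at D3, Slc34a2 4.33 ± 0.23 and 4.23 ± 0.19, and Lpcat1 2.38 ± 0.20 and 2.26 ± 0.23. Nkx2-1, the regulator, averaged 4.13 ± 0.32 in the D0 mice, 4.15 ± 0.27 in D1, 4.17 ± 0.29 in D2 and 4.11 ± 0.28 in D3. Its log2 fold change at D3 was -0.03 with an interval from -0.37 to 0.32. For each of these 4 genes the ranges of D0 and D3 overlapped.

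**Figure D3:**
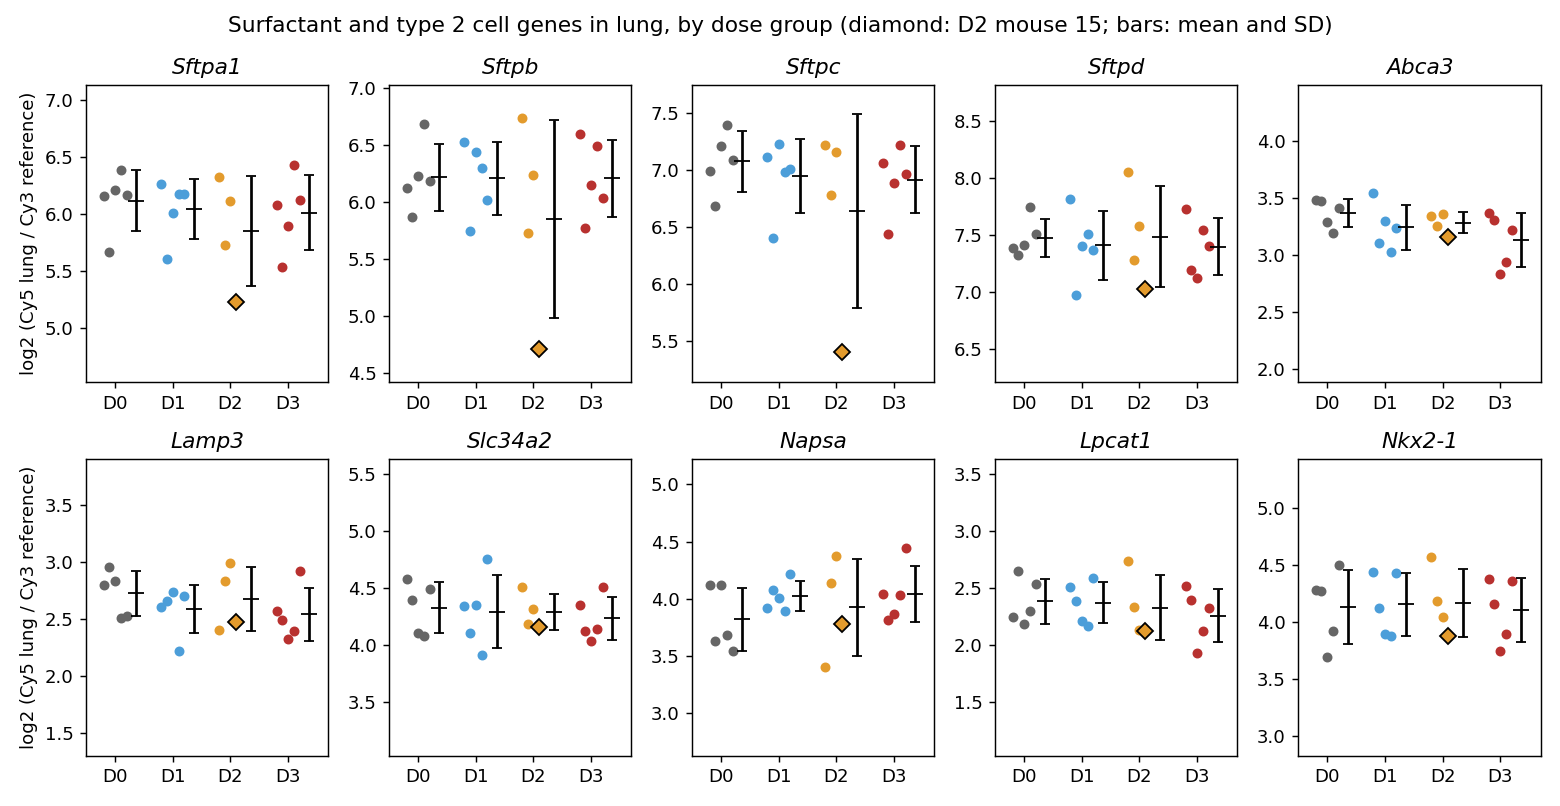
Log2 ratio of Cy5 (lung) over Cy3 (reference) for each of the 10 genes in each mouse, by dose group, with 1 point per mouse and bars for the mean and SD. The dose groups overlap in every panel, and D2 mouse 15 (diamond) lies apart for Sftpa1, Sftpb and Sftpc.

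The means of Sftpa1, Sftpc and the brighter Sftpb probe were lowest at D2, and there they rested on 1 array. Sftpc read 7.22, 6.78 and 7.15 in D2 mice 11, 12 and 13 and 5.4 in mouse 15, where the other 18 lungs lay between 6.40 and 7.40. Sftpb on its brighter probe read 6.74, 5.73 and 6.24 and then 4.71 in mouse 15, against 5.73 to 6.74 elsewhere, and Sftpa1 read 5.23 in mouse 15, against 5.53 to 6.43. The second Sftpb probe (3.42, against 3.24 to 3.75) and the other 7 genes lay inside the range of the other lungs in mouse 15. As scanned, and not scaled between arrays, the Cy5 signal of Sftpc in mouse 15 was 267409, inside the range of the other lungs from 213596 to 458048, and that of the brighter Sftpb probe was 38416, against 26817 to 114442. Its Cy3 signal was 34790 for Sftpc, against 5129 to 13521 on the other lung arrays, and 6103 for Sftpb, against 1211 to 2858. For both probes the low ratio stood beside a Cy3 signal above those of all other lung arrays and a Cy5 signal inside their range. For Sftpa1 this was weaker. Its Cy3 signal was 3140, against 1375 to 2984, and 1.36-fold over the median of the other lung arrays. Its Cy5 signal was 30323, near the lower end of theirs (29893 to 110519). Of all probes, 195 (0.350%) had a Cy3 signal on this array that was above all other lung arrays and more than 2-fold over their median. The cause was not tested. Without mouse 15 the D2 log2 fold change of Sftpc moved from -0.44 to -0.02, that of Sftpb from -0.36 to 0.02 and that of Sftpa1 from -0.27 to -0.06.

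The ratios of the 4 surfactant proteins varied together across the 19 lung arrays. Their 6 pairs had a Pearson r from 0.70 to 0.93 (median 0.84), and the median was 0.83 without D2 mouse 15 and 0.88 after each slide was centred. The 15 pairs among the other 6 genes had a median r of 0.54 (range -0.38 to 0.86), and the 24 pairs between the sets a median of 0.12. These are descriptions across arrays that share a reference and slides, given with no test. The Cy5 channel alone gave another picture. With Cy5 scaled to the 75th percentile of the array and each slide centred, the pairs of surfactant proteins had a median r of 0.11 (range -0.08 to 0.72), where their slide-centred ratios had 0.88. For the pairs among the other 6 genes these medians were 0.54 and 0.39, and for the pairs between the sets 0.44 and 0.08.

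Of 11631 other genes read well above background on every lung array, the pattern across arrays most like the mean of the 10 members was that of Adgrf5 (r = 0.84 over 19 arrays), which encodes an adhesion G protein-coupled receptor. It was followed by Cbr2 (r = 0.80), Hba-a1 (0.80), Akap5 (0.80), Lyz1 (0.79), Wfdc2 (0.79), Kdr (0.79), Ptprb (0.78), Cyp2f2 (0.78) and Dad1 (0.77). Without D2 mouse 15 these correlations lay between 0.55 and 0.73. They are the highest of 11631, given with no test. All are correlations of ratios and none was taken in Cy5 alone, so a part of the reference channel in them was not tested.

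Other genes of type 2 cells and of surfactant metabolism were examined next, from lists written with earlier results of these data known. None of the 12 other markers of type 2 cells was called in lung at any dose, and their median log2 fold change at D3 was -0.02. At D1 they ran from -0.68 to 0.20 (limma, lowest adjusted p = 0.882). At D2 they ran from -1.74 to 0.26 (lowest adjusted p = 0.217). At D3 the lowest were Hc (complement C5, -0.83, limma, adjusted p = 0.115) and Cxcl15, the lung chemokine lungkine (-0.21), and the highest were the claudin Cldn18 (0.18) and the mucin Muc1 (0.14). None of 16 genes of surfactant lipid was called (median 0.06). In this list the sterol exporters Abca1 (0.58, adjusted p = 0.0776) and Abcg1 (0.32, adjusted p = 0.401) lay highest, and choline kinase Chka (-0.28) and Pcyt1a, which makes CDP-choline (-0.15), lay lowest.

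None of 12 genes of precursor processing and lamellar body traffic was called (median 0.04). The palmitoyltransferase Zdhhc2 (0.31) and Rab27a (0.22), a GTPase of secretory vesicles, lay highest, and the fusion protein Snap23 (-0.16) and the protease Ctsh (-0.13) lowest. None of 12 transcription factors and receptors in a list of regulators, not all of them particular to type 2 cells, was called (median -0.07). Tcf21 (0.48) and Etv5 (0.29) lay highest, and Foxa1 (-0.46, adjusted p = 0.327) and Stat3 (-0.25) lowest. None of 9 genes of surfactant clearance was called (median 0.01). Abcg1 and the scavenger receptor Scarb1 (0.27) lay highest, and Csf2 (GM-CSF, the cytokine that macrophages need to clear surfactant, -0.13) and its receptor chain Csf2ra (-0.10) lay lowest.

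**Figure D4:**
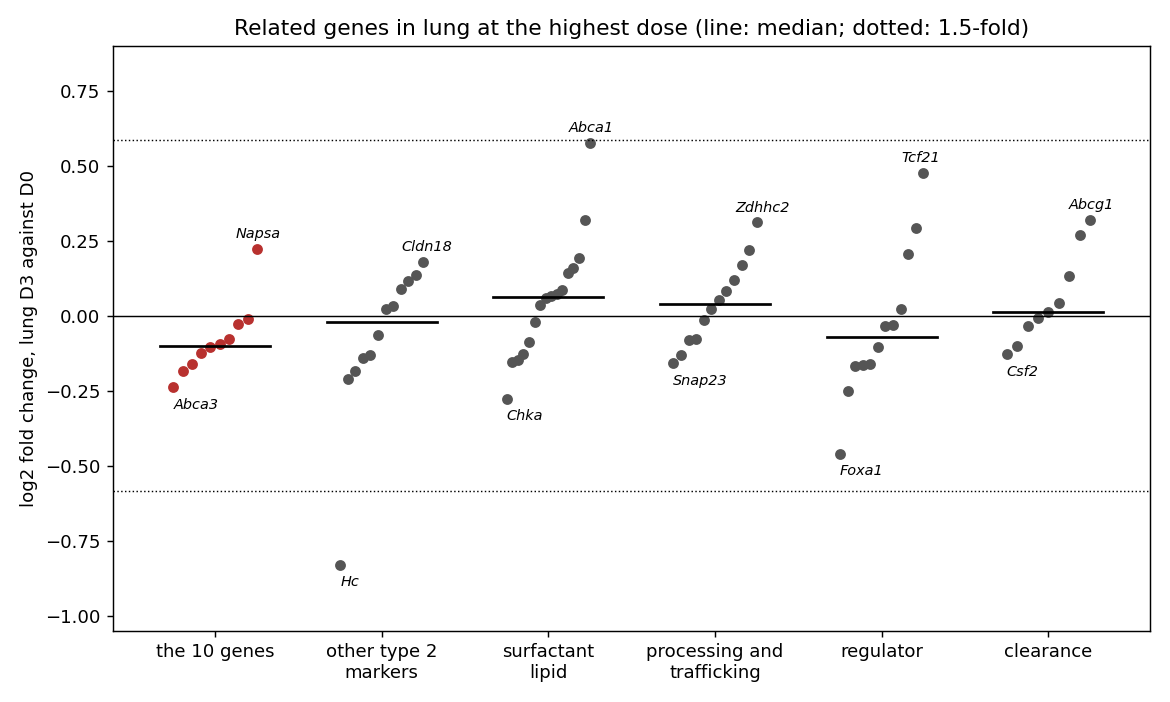
Log2 fold change in lung at D3 against D0 of the 10 genes (red) and of the genes of 5 related lists (grey), 1 point per gene in order of size, with a line at each median, dotted lines at a fold change of 1.5 and the lowest and highest gene named. Hc (-0.83) is the only gene outside the dotted lines, and no gene shown was called.

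Markers of other cells were followed in the same lung samples. At D3 none of 5 type 1 cell markers, 3 club cell markers, 5 ciliated cell markers, 6 alveolar macrophage markers, 5 endothelial markers or 6 heart muscle markers was called. Their median log2 fold changes were -0.14, -0.19, -0.20, 0.11, 0.01 and 0.51, and 6 of 6 macrophage and 6 of 6 heart muscle markers were above 0. A score, the mean log2 ratio of a list minus its D0 mean, ranged over the D0 lungs from -0.07 to 0.05 for the 10 members, and over the exposed lungs from -0.57 to 0.17. The lowest was D2 mouse 15, whose Cy3 signal for Sftpc and Sftpb is given above, and without it the lowest was -0.29, at D3. The alveolar macrophage score lay between -0.52 and 0.39 in D0 and between -0.18 and 0.48 in D3 lungs. The heart muscle score lay between -0.58 and 0.54 in D0 and between -0.68 and 1.49 in D3 lungs, with 2 to 5 of its 6 markers above background. Whether the tissue content of the samples bore on the members was not tested.

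In forestomach, the 10 genes were compared by dose in the same way. None was called at D1, D2 or D3, and limma called 0% of all probes at each dose. Of 55681 probes, 2402, 1737 and 1986 passed 0.05 without adjustment, among them 0 members. The median log2 fold changes of the members were 0.02, -0.02 and 0.13, and each adjusted p was 1.00 after rounding. Of the 2 genes measured on every array, Abca3 averaged 0.51 ± 0.29 at D0 and 0.69 ± 0.12 at D3, and Lamp3 averaged -1.23 ± 0.36 and -1.31 ± 0.24. For Sftpa1, Sftpb, Sftpc, Slc34a2 and Nkx2-1, neither channel was well above background on most forestomach arrays, so that their ratios there compare 2 signals near background and give no level.

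Sftpd, whose product is also made by epithelia outside the lung, varied most. It read 2.13, -0.22, 2.28, 0.71 and -0.09 in D0 mice 1 to 5, 0.09, 2.59, -0.02, -0.03 and 2.28 in D1 mice 6 to 10, 1.14, 3.31, 1.26 and -0.05 in D2 mice 11, 12, 13 and 15, and 1.94, 2.30 and 1.48 in D3 mice 16, 17 and 19. The 2 arrays of D3 mouse 18 read -0.28 and 2.26. High and low values stood side by side in D0, D1 and D2, whereas at D3 the only low value was the first array of mouse 18. With the arrays of that mouse averaged, 4 of 4 D3 mice lay above the D0 mean, and the groups overlapped. The log2 fold change of 0.72 at D3 had an interval from -0.82 to 2.25. With only the first array of mouse 18 it was 0.40, and with only the second 1.03. The samples also differed in 9 markers of the glandular stomach, the neighbouring part of the organ. On the 6 arrays whose glandular score lay between -3.39 and -2.84, Sftpd lay between -0.28 and -0.02 and was well above background on none. On the other 13, with a score between 0.84 and 2.78, it lay between 0.09 and 3.31 (median 2.13) and was well above background on 12, D1 mouse 6 being the exception. The second Sftpd probe was well above background on 1 of the 6 and 9 of the 13. The 2 arrays of mouse 18 fell on either side, with scores of -2.84 and 2.36. The score spanned -3.20 to 2.78 in D0, -3.39 to 2.04 in D1, -2.98 to 1.84 in D2 and -2.84 to 2.36 in D3 forestomachs, with 2 to 9 of the 9 markers above background, and at D3 all 9 markers lay above D0 (median log2 fold change 1.17) with none called. The part of the glandular tissue in the Sftpd signal was not tested.

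**Figure D5:**
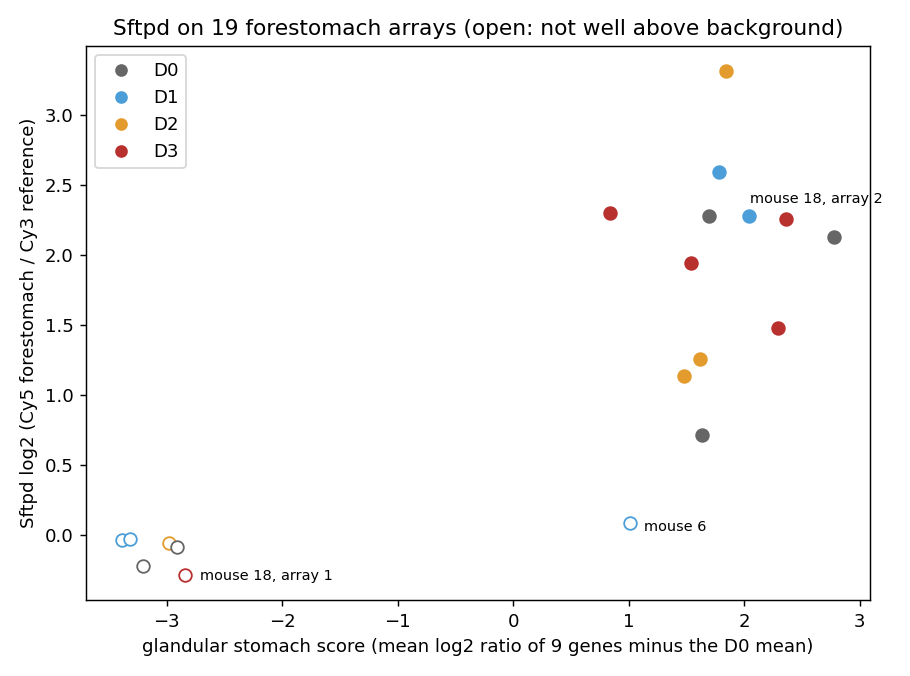
Log2 ratio of Sftpd on each of the 19 forestomach arrays against the glandular stomach score of the same array (mean log2 ratio of 9 marker genes minus the D0 mean), coloured by dose group, with open points where Sftpd was not well above background. Sftpd is not well above background on the 6 arrays at the left, with scores from -3.39 to -2.84, and is on 12 of the other 13, including 1 of the 2 arrays of mouse 18.

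Sftpc, held to be the most specific marker of type 2 cells, was near its floor in forestomach with 4 exceptions. D3 mouse 17 read 2.93 (Cy5 508, against 65.0 to 111 on the other 18 arrays), the second array of mouse 18 read 0.90, and D0 mice 2 and 3 read 0.71 and 0.65. These were the 4 arrays where the probe was well above background. In mouse 17 the brighter Sftpb probe (0.42) and Slc34a2 (0.41) were also at their highest in forestomach and well above background. Their Cy5 signals were still near the floor, at most 100.5 and 98.0 on any forestomach array (medians 71.0 and 70.5). Sftpa1 and Nkx2-1 were not above background in that mouse. The D3 log2 fold change of Sftpc in forestomach was 0.49 (SE 0.43, adjusted p = 1.00), with mice 17 and 18 above the D0 mean. Without mouse 17 it was -0.22, so its direction rested on that mouse.

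Finally, the D3 response in lung was set against that in forestomach by a contrast of the 2 differences. None of the 10 genes was called, where 0.172% of all probes were. The estimates ran from -0.79 (Sftpd) to 0.41 (Napsa), 9 of 10 were below 0, and only Abca3 had an unadjusted p under 0.05 (-0.41, limma, SE 0.18, adjusted p = 0.885). The interval lay inside a 1.5-fold difference for 3 of the 10 genes, Lamp3, Lpcat1 and Nkx2-1. Of these, only Lamp3 was well above background on every forestomach array. Lpcat1 was on 4 of 19 and Nkx2-1 on none, so the narrow interval of Nkx2-1 bounds no response in forestomach. For the other 7 a difference of that size between the tissues cannot be set aside at this number of arrays. Among them, Sftpa1, Sftpb, Sftpc and Slc34a2 also had forestomach ratios of signals near background.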

How the data were processed

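Spot intensity values were deposited by the authors as Feature Extraction 10.7.3.1 output of 38 two-colour Agilent arrays. The authors' log2 ratio table, made from median signals by LOWESS, and the deposited log10 ratio of Feature Extraction served as alternatives. Here the median intensities, without background subtraction, were normalized by loess within each array (R 4.3.3, limma 3.58.1). Control spots and outlier-flagged spots were left out, spots of 1 probe were averaged, and probes were named by accession through RefSeq. For a gene with several probes, the brightest in Cy5 over the lung arrays was used. Each tissue was fitted with limma over its 4 dose groups, and both tissues together for the 2 contrasts between tissues. The fits of each tissue were also run on simulated data. These had independent noise and no slide effect, unlike the arrays here, so that run does not bear on spread between slides. The members and lists were chosen with earlier results of these data known. All members are named, and of each list the genes called and the 2 highest and 2 lowest in lung at D3. Normexp correction was run on median signals. Lung and forestomach of 1 mouse pair by the mouse number of the labels (18 mice, correlation of deviations from 0.0751 to 0.249). The main fits held 1 value per mouse and no slide term. Their p-values therefore rest on a spread that mixes mice, arrays and slides, and the number of arrays limits their precision. Rtkn2, Scgb3a2 and Cd68, listed as markers, had no named probe.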

Additional observations from a re-analysis of the deposited data

Results flagged for a closer look

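Of 80 sets of values, 1 for each of the 10 genes in each dose group and tissue, 2 held a value far from the rest of its group by Dixon's criterion, where chance alone gives about 5% of groups. In D1 lung, Lamp3 read 2.22 in mouse 9, against 2.61 to 2.74 in the other 4 mice. In D0 forestomach, Nkx2-1 read 0.11 in mouse 3, against -0.0027 to 0.02 in the others, on a probe that was above background on none of these arrays. No member was called for a difference between the tissues in its response at D3. For 7 of the 10 the interval reached beyond a 1.5-fold difference, so a difference of that size cannot be set aside.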

How the results depend on the processing

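The count of members called was the same under every other setting run: 0 of 10 in each dose contrast and in the difference between the tissues, and 10 of 10 for D0 lung against D0 forestomach. These settings were normexp correction, median centring, quantile scaling of the average signal, the Feature Extraction ratio, the authors' table, a filter on dim probes (which left 3 members in forestomach), outlier spots kept, slide or scan date as a block, only the 2 groups compared, either array of mouse 18, the other probes, and leaving out each mouse. With the mouse as a replicate block, fixed or random, the counts were 10 and 0 too. The other 2 settings, Cy5 alone by quantile or by the 75th percentile with slide as a block, were chosen after seeing the data. The sign of an uncalled member changed in 107 of 653 lung, 79 of 685 forestomach and 22 of 342 difference values. The lowest adjusted p in lung with ratios was 0.0699, for Abca3 at D3 with the Feature Extraction ratio (-0.36), and its adjusted p reached 0.810 with median centring (0.28). With Cy5 by the 75th percentile, Sftpc at D3 in lung had an adjusted p of 0.0105 at -0.26, under the fold threshold, and 5 members at D2 and 2 at D3 in forestomach had one of at most 0.05, also under it. Quantile scaling of Cy5 gave Sftpc the same value on every lung array and so no test. Over all probes the calls in lung moved from 78, 147 and 356 to 0, 5 and 16 with median centring, to 160, 225 and 533 with the Feature Extraction ratio and to 249, 406 and 589 with Cy5 by the 75th percentile. Slide as a block gave 130 and 242 at D1 and D2, and the D2 calls were 93 without D2 mouse 12. In forestomach, Cy5 by the 75th percentile called 51 probes at D2 and 96 at D3, and the 2 groups alone 3 at D3. Between the tissues at D0, 9032 probes were called, 4561 with median centring and 14234 with Cy5 by the 75th percentile. The difference of the D3 responses had 96, with 2 by median centring, 183 and 191 with slide or scan date as a block, and 60 (without forestomach of D3 mouse 16) to 114 leaving out 1 sample. The cause was not tested. Signals near background in forestomach limit what its contrasts can show.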
